A study of Caenorhabditis elegans with 12 samples.

Results

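The fatty acid and retinol binding genes far-1 to far-8 of Caenorhabditis elegans are described here, found as 8 rows of the 46748 in a gene count table by matching gene identifiers to WormBase symbols. FAR proteins are small helical proteins found in nematodes that bind fatty acids and retinol. Parasitic nematodes secrete them at the contact with their host and in C. elegans they are thought to carry lipids within or between tissues. Sequence comparisons of the C. elegans family have grouped far-1, far-2 and far-6 together, far-3, far-4 and far-5 together, and far-7 with far-8. The family was picked because far-3 and far-7 differed by diet in opposite directions in these libraries. The diet values below are therefore a description without a test. So are the values of far-3 and far-7 in comparisons other than genotype averaged over diets.

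Poly(A) RNA of whole adults was sequenced from 4 groups with 3 biological replicates each, namely sek-1(km4) mutants on dietary restriction (DR), sek-1(km4) mutants fed ad libitum (AL), wild-type N2 on DR and wild-type N2 on AL. SEK-1 is a MAP kinase kinase that activates the p38 kinase PMK-1 in innate immunity, and the km4 strain, the only mutant strain used, carries a deletion in the gene in all tissues. All groups were raised at 20 °C, carried through young adulthood on plates with antibiotics and the sterilising agent fluorodeoxyuridine (FUdR, 100 mg/L), and fed growth-arrested Escherichia coli OP50. On adult day 3 they went into liquid, 10 to 20 worms per 1 ml well, with OP50 at an optical density of 0.1 for DR or 3 for AL, and were frozen on adult day 6. The comparisons ask which transcripts differ between the genotypes, which differ by diet, and whether the diet difference depends on SEK-1.

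The libraries held 13673987 to 31675540 counts, of which 32.63% to 50.95% were ribosomal RNA. N2 AL replicate 3 stood apart, with a correlation across genes of at most 0.907 with its group, against at least 0.9798 within each other group. Genes under 1 kb in it were a median 1.12 higher on the log2 scale than in the other N2 AL libraries, and genes over 2 kb were 0.85 lower. Replicate 3 of each other group leaned the same way, by less. There genes under 1 kb were a median 0.26 higher in N2 DR, 0.24 in sek-1(km4) AL and 0.17 in sek-1(km4) DR. The far genes, with 612 to 908 nt of exon, are short beside the median tested gene of 1378 nt. Results that rest on N2 AL replicate 3 are therefore also given without it, which leaves the smaller trend in the other groups. The sek-1 gene itself was counted at 20.7 to 22.4 CPM in sek-1(km4) DR, 16.4 to 18.8 in sek-1(km4) AL, 23.4 to 28.5 in N2 DR and 3.71 to 22.7 in N2 AL. Reads from exons outside the deletion are included there, so that level checks neither the deletion nor the labels. Of the 46 tissue markers examined, rol-6 was at 0 in 2 libraries and ceh-22 in 1, and the others had counts in every library.

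The 8 genes lie at 5 places on 4 chromosomes (WBcel235, Ensembl annotation). On chromosome III, far-1 (WBGene00001385, minus strand, 9080371 to 9081179) and far-2 (WBGene00001386, plus strand, 9081828 to 9082511) stand head to head, 648 bp apart. Also on III, far-8 (WBGene00001392, plus strand, 842930 to 843802) lies far from them. On chromosome V, far-5 (WBGene00001389, plus strand, 12995569 to 12996836), far-3 (WBGene00001387, minus strand, 12996787 to 12997522) and far-4 (WBGene00001388, minus strand, 12998427 to 12999659) are consecutive protein-coding genes. Their members far-3 and far-5 point at each other and share 50 bp of exon at their 3′ ends, 7.43% of the exon length of far-3 and 7.63% of that of far-5. The strand setting of the counting is not given in the sources used here, so reads from the shared bases cannot be assigned. On chromosome IV lies far-6 (WBGene00001390, plus strand, 13328359 to 13329314), and on II far-7 (WBGene00001391, plus strand, 319789 to 321110), for which 4 transcripts are annotated. All are protein-coding, and the counts are sums over their exons.

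Levels within the family spanned over 3 orders of magnitude. The level is given as CPM, the count relative to the library total after scaling by the trimmed mean of M values (TMM), and between genes per kilobase of exon. It placed far-2 first and far-1 next in every group. The far-2 level was 1130 ± 33.2 CPM per kb in sek-1(km4) DR, 1280 ± 145 in sek-1(km4) AL, 669 ± 72.8 in N2 DR and 1306 ± 185 in N2 AL (SD, n = 3). For far-1 these levels were 407 ± 21.4, 417 ± 36.9, 225 ± 33.8 and 390.1 ± 72.6 CPM per kb in the same order of groups. The far-1 and far-2 libraries did not overlap in any group.

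The ranks below that pair depended on the genotype. In N2 AL far-3 was next at 321 ± 145 CPM per kb, with libraries overlapping those of far-1, and in N2 DR it was next at 85.03 ± 10.9 with no overlap on either side. In sek-1(km4) the place belonged to far-6, with 55.1 ± 2.41 CPM per kb on DR and 48.4 ± 1.32 on AL. There far-3 ranked last of the 8 on DR, at 3.88 ± 1.92 CPM per kb, overlapping far-5 at 4.01 ± 0.585, and on AL, at 27.05 ± 3.296, it overlapped far-8 at 25.2 ± 4.86. In N2 the lowest level was that of far-4, 0.376 ± 0.0935 CPM per kb on DR and 0.751 ± 0.0979 on AL, below far-5 without overlap.

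**Figure D1:**
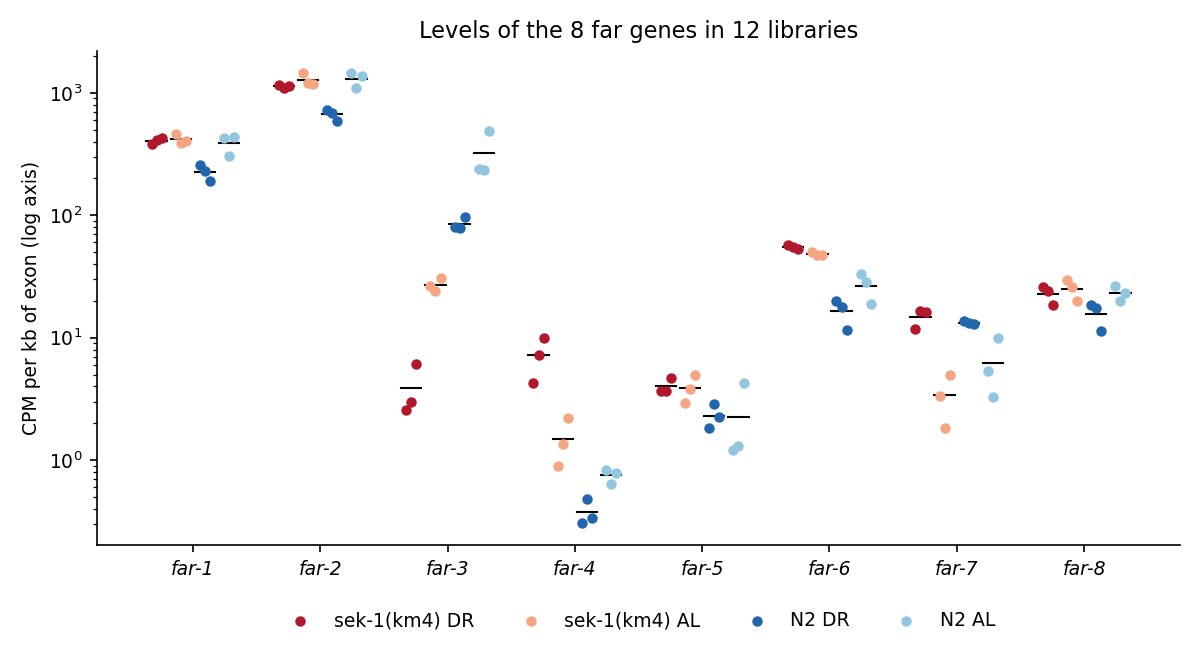
Level of each far gene in CPM per kilobase of exon (log axis) in each library, with 1 point per library and a line at the mean of the 3 libraries of a group. far-2 and far-1 are at the top in every group, far-3 is lower in the sek-1(km4) libraries than in the N2 libraries, and far-4 is highest in sek-1(km4) DR.

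All 8 genes passed the filter on low counts, which asks for about 0.425 CPM in 3 libraries. Of the 8 libraries in which far-4 reached that level, 6 were sek-1(km4) and 2 were N2 AL, so it entered the test only through the genotype in which it was high, and the counts of members below are a description. The genotype comparison averaged over diets was tested for all 8. With groups of equal size and 1 shared spread, it is independent of both diet differences. However, the N2 AL libraries spread more than the others (within-group variance 0.72 against 0.11 to 0.15, log2 CPM). For far-3 and far-7, chosen on diet, the independence is therefore only partial. The comparison used edgeR's quasi-likelihood test with Benjamini-Hochberg adjustment over 14611 genes and a threshold of 0.05. In sek-1(km4) far-3 was lower, far-4, far-6, far-5, far-1 and far-2 were higher, and far-7 and far-8 did not pass. Thus 5 members rose and 1 fell, while over all genes 47.4% passed, 28.4% as higher and 19% as lower, so that calls were common in this comparison. Corrected for exon length, the calls over all genes were 3281 higher and 5490 lower, against 4148 and 2776 without the correction, and the median of all genes was −0.19 with it and 0.07 without it (log2).

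The largest difference in the family was in far-3. Its level was 1.73, 2.01 and 4.09 CPM in the sek-1(km4) DR libraries and 17.8, 16.2 and 20.6 CPM in sek-1(km4) AL, against 53.5, 52.5 and 65.7 CPM in N2 DR and 160.2, 159 and 329 CPM in N2 AL. No sek-1(km4) library came near the lowest N2 library, and within N2 AL the library at 329 CPM was replicate 3. Averaged over diets, far-3 fell by 4.02 on the log2 scale in sek-1(km4) (± 0.27 SE, n = 6 libraries per genotype, edgeR adjusted p = 9.71e-07), which is 16.2-fold. Without N2 AL replicate 3 the log2 fold change was −3.83, and the call held under each of the 21 alternatives. Of 7925 genes averaging 5 CPM or more, 17 had a lower value. On DR alone the difference was −4.47 ± 0.39 and on AL alone −3.57 ± 0.37, both given without a test because their groups also define the diet difference. In bulk RNA of whole worms, fewer cells of a type and less RNA per cell cannot be told apart, here and in what follows.

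The neighbour far-4 went the other way. It had 3.02, 5.16 and 7.11 CPM in sek-1(km4) DR and 0.634, 0.961 and 1.59 CPM in sek-1(km4) AL, against 0.220, 0.344 and 0.239 CPM in N2 DR and 0.591, 0.457 and 0.557 CPM in N2 AL. Every sek-1(km4) library lay above every N2 library, although the AL groups stood close. The N2 values rest on 5 to 17 counts per library and those of sek-1(km4) DR on 84 to 144. Averaged over diets far-4 rose by 2.59 ± 0.30 on the log2 scale (SE, edgeR adjusted p = 5.26e-05), and the call held under each of the 21 alternatives, among them the fit with no filter on low counts (2.60 ± 0.29, edgeR adjusted p = 5.71e-10). By diet, its log2 fold change was 4.21 ± 0.44 on DR (edgeR adjusted p = 5.93e-05) and 0.96 ± 0.43 on AL, where it did not pass (edgeR adjusted p = 0.135). The DR call held under each of 22 alternatives, again with no filter among them, and on AL far-4 passed in 0 of 22.

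The third gene of the cluster, far-5, was low throughout. Its levels were 2.41, 2.403 and 3.07 CPM in sek-1(km4) DR and 1.90, 2.50 and 3.26 CPM in sek-1(km4) AL, against 1.19, 1.87 and 1.47 CPM in N2 DR and 0.800, 0.857 and 2.78 CPM in N2 AL. The DR groups did not overlap, and the AL groups overlapped only through N2 AL replicate 3. Averaged over diets far-5 rose by 0.83 ± 0.30 (log2, SE, edgeR adjusted p = 0.0384). This call was lost in 6 of the 12 fits that left out 1 library, namely N2 AL replicate 1 or 2, N2 DR replicate 1, sek-1(km4) AL replicate 3, and sek-1(km4) DR replicate 1 or 3, where its log2 fold change was 0.68 to 0.86 and the adjusted p at most 0.077. Without N2 AL replicate 3 it was 1.20 averaged over diets, and on AL alone 1.61 against 0.88 with it, where it then passed (edgeR adjusted p 0.00157 against 0.174). The far-5 counts did not follow those of the overlapping far-3. In sek-1(km4) DR far-3 had 48 to 76 counts and far-5 had 57 to 67, while in N2 AL far-3 had 2783 to 4607 counts and far-5 had 15 to 30.

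**Figure D2:**
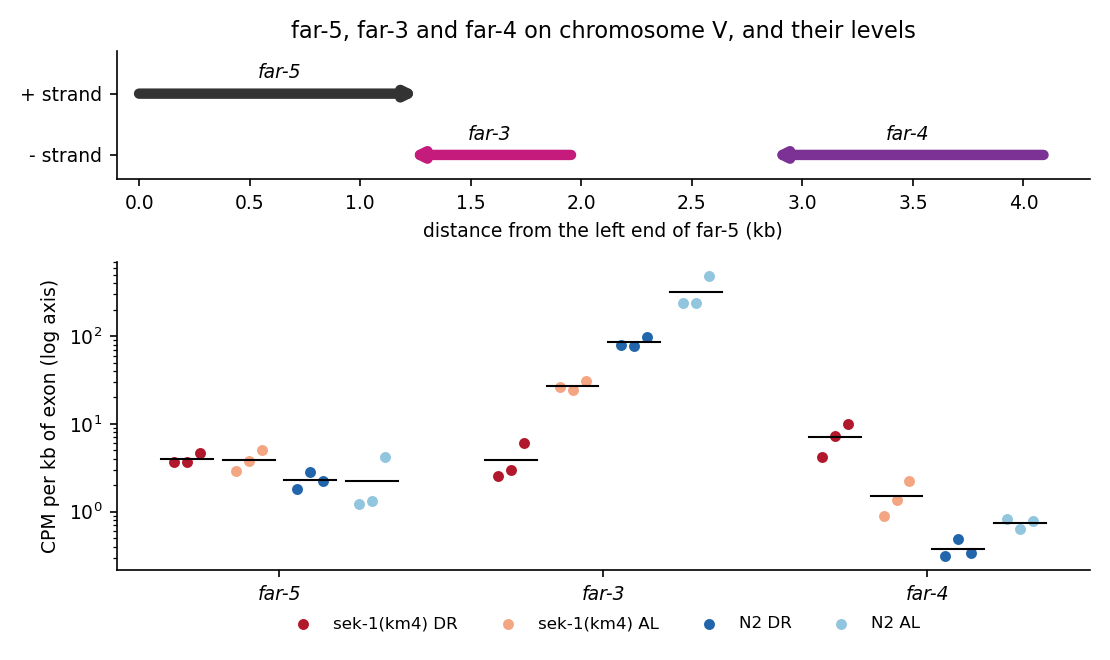
Upper panel: far-5, far-3 and far-4 drawn to scale on chromosome V as arrows in the direction of transcription, against the distance in kb from the left end of far-5. Lower panel: CPM per kb of exon (log axis), 1 point per library and a line at each group mean. far-3 is lowest and far-4 highest in sek-1(km4) DR, and far-5 stays between 1 and 5 in all groups.

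In the far-1 subgroup far-6 differed most between genotypes. For far-6 the libraries had 52.4, 49.7 and 48.0 CPM in sek-1(km4) DR and 45.3, 43.2 and 43.3 CPM in sek-1(km4) AL, against 18.1, 16.3 and 10.4 CPM in N2 DR and 29.9, 25.8 and 17.0 CPM in N2 AL. The genotypes did not overlap on either diet, and the mutant libraries were close together. Averaged over diets far-6 rose by 1.30 ± 0.17 (log2, SE, edgeR adjusted p = 9.93e-05), with the call held under each of the 21 alternatives. It rose on DR by 1.74 ± 0.24 (edgeR adjusted p = 0.000314) and on AL by 0.85 ± 0.23 (edgeR adjusted p = 0.0266). The AL call was lost without N2 AL replicate 2, any of the sek-1(km4) AL libraries or sek-1(km4) DR replicate 2 (log2 fold change 0.87 to 0.92, edgeR adjusted p 0.0509 to 0.1004). It was also lost with a correction for exon length, at 0.63 (edgeR adjusted p = 0.143), or 0.27 without N2 AL replicate 3 as well.

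The abundant neighbours far-1 and far-2 separated the genotypes on DR and overlapped on AL. The far-1 libraries had 250.4, 270.4 and 277 CPM in sek-1(km4) DR, against 167, 151 and 123 CPM in N2 DR. On AL they had 299.5, 255 and 262 CPM in sek-1(km4), against 277, 200.3 and 287 CPM in N2. The far-2 libraries had 712, 671 and 691 CPM in sek-1(km4) DR, against 447, 421 and 361 CPM in N2 DR. On AL far-2 had 885, 737 and 727 CPM in sek-1(km4), against 881, 669.7 and 848 CPM in N2. The N2 DR libraries were thus the low ones for both genes.

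On DR, far-1 rose in the mutant by 0.86 ± 0.19 (log2, SE, edgeR adjusted p = 0.00509) and far-2 by 0.75 ± 0.19 (edgeR adjusted p = 0.00872). On AL the log2 fold changes were 0.09 ± 0.19 for far-1 (edgeR adjusted p = 0.778) and −0.03 ± 0.19 for far-2 (edgeR adjusted p = 0.935). Averaged over diets far-1 rose by 0.48 ± 0.13 (edgeR adjusted p = 0.0129), but with a correction for exon length the value was 0.36 (edgeR adjusted p = 0.0855). The far-1 call held in 18 of 21 alternatives. It also ended with no filter on low counts, and with exon length when N2 AL replicate 3 was left out (edgeR adjusted p = 0.154). The average for far-2, 0.36 ± 0.13 (edgeR adjusted p = 0.0404), kept its call in 7 of 21 alternatives, and with exon length it was 0.26 (edgeR adjusted p = 0.245). Leaving out any 1 library other than N2 AL replicate 1 or 3 ended that call, with log2 values of 0.31 to 0.40 (edgeR adjusted p 0.0533 to 0.132). For far-2 on DR the call ended without N2 DR replicate 3 (0.59, edgeR adjusted p = 0.082) or sek-1(km4) DR replicate 2 (0.72, edgeR adjusted p = 0.0518) and with the correction for exon length (0.53, edgeR adjusted p = 0.106). With no filter on low counts, the DR calls of both far-2 (edgeR adjusted p = 0.132) and far-1 (edgeR adjusted p = 0.0596) ended.

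The far-7 and far-8 genes did not pass between genotypes in the main edgeR fit, of 4 group means over all libraries. The log2 fold change averaged over diets was −0.34 ± 0.27 for far-7 (SE, edgeR adjusted p = 0.327, passing in 1 of 21 alternatives at −0.42) and 0.32 ± 0.16 for far-8 (edgeR adjusted p = 0.122). By library far-8 had 20.2, 18.7 and 14.6 CPM in sek-1(km4) DR and 23.3, 20.2 and 15.7 CPM in sek-1(km4) AL, against 14.5, 13.6 and 8.87 CPM in N2 DR and 20.9, 15.5 and 18.2 CPM in N2 AL. Its DR groups did not overlap, by a narrow margin, and its AL groups did. On DR its log2 fold change was 0.53 ± 0.23 (edgeR adjusted p = 0.0878), which passed without N2 AL replicate 3 (edgeR adjusted p = 0.0344), in the fit of the DR groups alone (edgeR adjusted p = 0.043) and by limma voom (adjusted p = 0.0061). Averaged over diets far-8 also passed by limma voom (0.31, adjusted p = 0.0125). With a block for replicate number in edgeR, far-8 passed both averaged over diets and on DR. Of the 6 members apart from far-3 and far-7, 4 rose and 0 fell on DR, where 39.5% of all genes passed, 24.9% as higher and 14.6% as lower. The median of all genes there was 0.17 (log2), and −0.15 with the correction for exon length, under which 2891 genes rose and 4897 fell, against 3631 and 2136 without it. All 6 rose on DR without N2 AL replicate 3, where 64.5% of all genes passed. On AL 1 of the 6 rose and 0 fell, where 17.5% of all genes passed, 12.7% as higher and 4.72% as lower, and 2 rose without N2 AL replicate 3, where 38.8% of all genes passed. Corrected for exon length, 1741 genes rose and 3157 fell on AL, against 1860 and 690 without it.

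**Figure D3:**
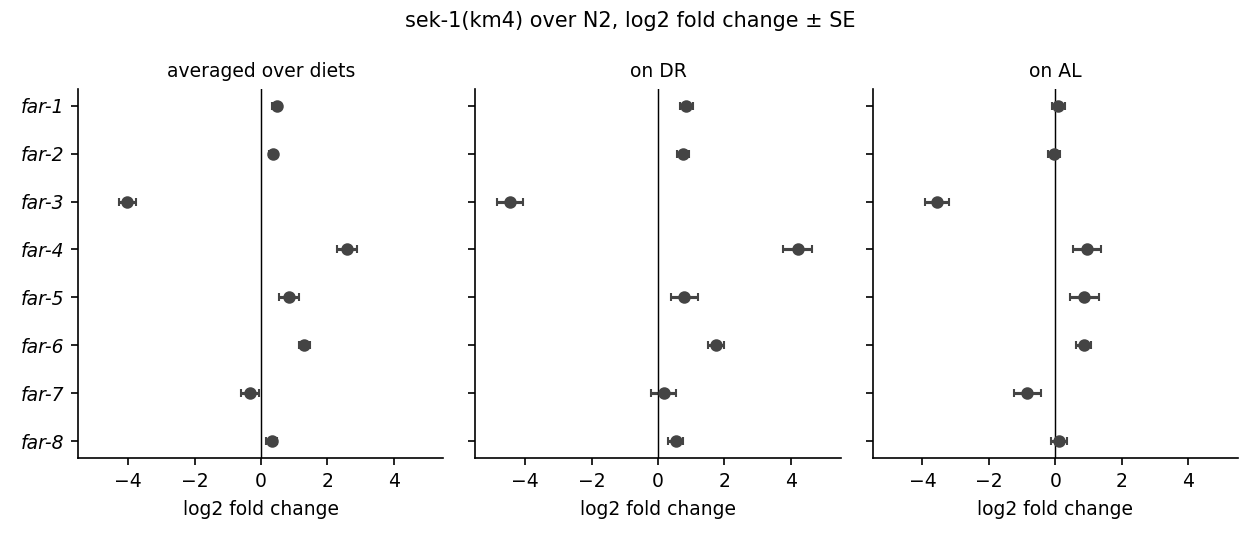
Log2 fold change of sek-1(km4) over N2 for each far gene, averaged over diets, on DR and on AL, with bars of 1 SE (n = 6 libraries per genotype on the left, 3 per group in the other panels). far-3 stands at −4.02 and far-4 at 2.59 when diets are averaged, and far-4 stands at 4.21 on DR against 0.96 on AL.

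Other measures moved with genotype alongside these genes, and their part in the far differences was not tested. Of 7 hypodermal markers tested 6 rose in sek-1(km4) and 0 fell. Their summed level was 57.9 to 110.3 CPM in sek-1(km4) DR and 120.6 to 168 CPM in sek-1(km4) AL, against 24.6 to 65.3 CPM in N2 DR and 32.3 to 49.8 CPM in N2 AL. Germ line markers fell in 5 of 8 and rose in 0, at 2242 to 2984 CPM in sek-1(km4) DR and 2839 to 4169 CPM in sek-1(km4) AL, against 4821 to 5131 CPM in N2 DR and 2761 to 5375 CPM in N2 AL. The N2 AL library at 2761 CPM was replicate 3, and replicates 1 and 2 had 5375 and 5062 CPM. In other tissues 5 of 8 neuronal markers rose, 4 of 6 pharyngeal, 4 of 8 intestinal (1 fell) and 1 of 8 of body wall muscle. These counts stand beside the 28.4% of all genes that rose and the 19% that fell.

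The make-up of the family differed accordingly. far-2 made up 68.7% ± 1.49 of the summed CPM per kb in sek-1(km4) DR, 70.8% ± 0.881 in sek-1(km4) AL, 65.1% ± 0.590 in N2 DR and 63.2% ± 4.20 in N2 AL (SD, n = 3). The share of far-3 was 0.235% ± 0.114, 1.51% ± 0.258, 8.404% ± 1.98 and 15.2% ± 4.94 in that order of groups. The share of far-6 ran the other way, at 3.35% ± 0.156, 2.69% ± 0.191, 1.58% ± 0.283 and 1.33% ± 0.474. Summed over the 8 genes the level was 1645 ± 22.2 CPM per kb in sek-1(km4) DR and 1806 ± 184 in sek-1(km4) AL, against 1028 ± 105 in N2 DR and 2076 ± 349 in N2 AL. Each N2 DR library, at 914 to 1121, lay below every other library. Without scaling, the 8 genes took 0.184% to 0.201% of the counts outside ribosomal RNA in sek-1(km4) DR and 0.184% to 0.204% in sek-1(km4) AL, against 0.0926% to 0.108% in N2 DR and 0.165% to 0.226% in N2 AL. The Wilson 95% interval ran from 0.0911% to 0.0941% for the lowest library, N2 DR replicate 3, and from 0.223% to 0.230% for the highest, N2 AL replicate 3, for counting error only.

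**Figure D4:**
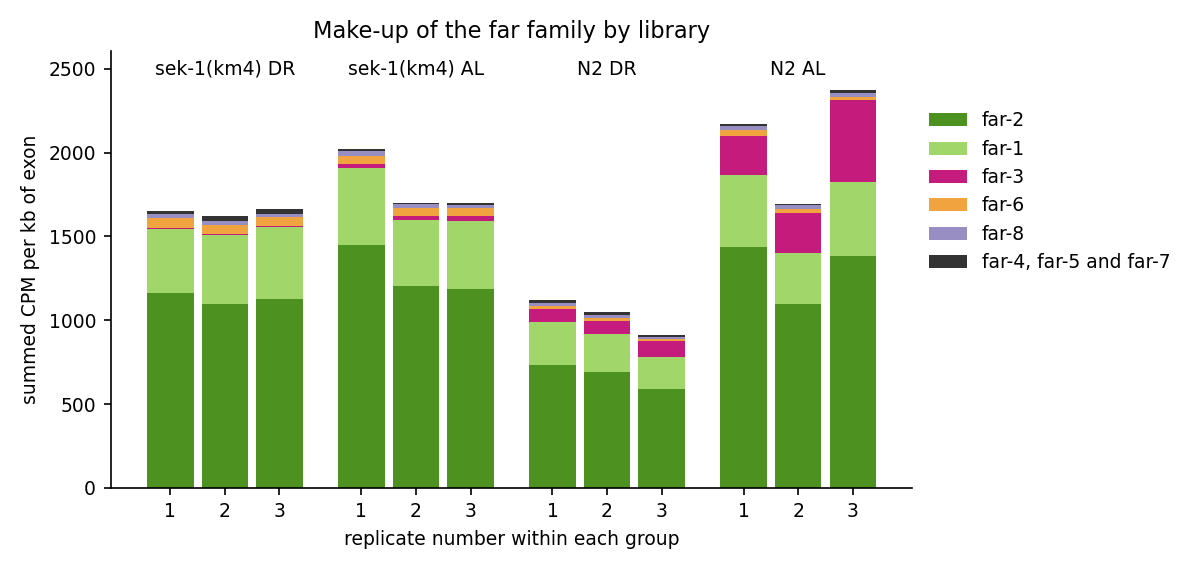
Summed level of the far family in each library in CPM per kb of exon, stacked by gene, with far-4, far-5 and far-7 drawn together. The N2 DR bars are the shortest, at 914 to 1121, and the far-3 layer is wide in N2 AL, narrower in N2 DR and barely visible in sek-1(km4).

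The diet values that drew attention to the family are those of far-3 and far-7, and nothing is read from them as a test. Counted only as a description, 2 of the 8 genes (far-2 and far-3) were past the threshold as lower and 0 as higher on DR in N2, where 0.725% and 0.363% of all genes were (1.09% in either direction). In sek-1(km4) 1 (far-3) was past it as lower and 2 (far-4 and far-7) as higher, where 0.281% and 0.171% of all genes were (0.452% in either direction). Since far-3 and far-7 were chosen on these values, the counts are not compared with those shares. In both genotypes far-3 was lower on DR without overlap. It averaged 2.61 ± 1.29 CPM on DR and 18.2 ± 2.22 CPM on AL in sek-1(km4), a log2 fold change of −2.82 ± 0.37 SE. In N2 it averaged 57.2 ± 7.32 CPM on DR and 216 ± 97.8 CPM on AL, a log2 fold change of −1.92 ± 0.34, or −1.48 ± 0.21 without N2 AL replicate 3.

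In far-7 the levels on DR were 7.92, 11.01 and 10.8 CPM in sek-1(km4), against 2.22, 1.23 and 3.304 CPM on AL. In N2 they were 9.20, 8.74 and 8.56 CPM on DR, against 3.55, 2.17 and 6.59 CPM on AL. Each DR library was above each AL library of its genotype, and the DR groups of the genotypes overlapped. The log2 fold changes were 2.14 ± 0.40 in sek-1(km4) and 1.13 ± 0.39 in N2, the second being 1.60 ± 0.32 without N2 AL replicate 3, the highest of its group.

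For the remaining members the diet values of the genotypes are given side by side. The log2 value for far-4 was 2.27 ± 0.38 in sek-1(km4) and −0.99 ± 0.48 in N2, and its DR and AL libraries did not overlap in either genotype. For far-2 it was −0.18 ± 0.19 in sek-1(km4) and −0.96 ± 0.19 in N2, and for far-1 −0.03 ± 0.19 and −0.79 ± 0.19 in that order. In sek-1(km4) the far-2 libraries on DR, at 671 to 712 CPM, lay just below those on AL, at 727 to 885, while in N2 the gap was wide. For far-6 the diet value was 0.19 ± 0.23 in sek-1(km4) and −0.70 ± 0.23 in N2. Those of far-8 were −0.14 ± 0.23 and −0.56 ± 0.23, and those of far-5 were 0.04 ± 0.40 and 0.13 ± 0.44, or 0.88 in N2 without N2 AL replicate 3, in the same order.

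**Figure D5:**
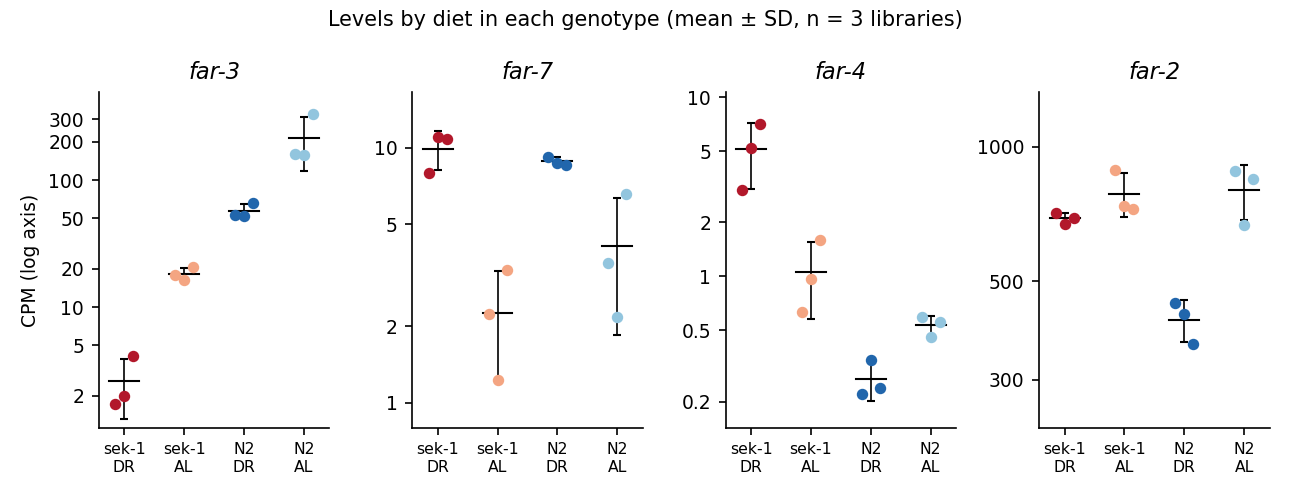
Levels of far-3, far-7, far-4 and far-2 in CPM (log axis, a separate scale for each gene) in the 4 groups, with 1 point per library, a line at the mean and bars of 1 SD (n = 3). On DR far-3 is lower and far-7 higher in both genotypes, far-4 is higher on DR in sek-1(km4) and lower in N2, and far-2 is low in N2 DR.

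Whether the diet difference depended on genotype was tested for the 6 members apart from far-3 and far-7. None of the 6 passed in the main edgeR fit, where 0 of 14611 genes (0%) did and 1303 had an unadjusted p under 0.05. DESeq2 called 50 genes and limma voom with sample weights 1374. The interaction was 3.25 ± 0.61 for far-4 (log2, SE, unadjusted p = 0.000208, edgeR adjusted p = 0.458). By DESeq2 far-4 passed at 3.23 (adjusted p = 0.0102) and by limma voom at 3.19 (adjusted p = 0.00671). It also passed by edgeR with no filter on low counts, and with exon length offsets when N2 AL replicate 3 was left out. It thus passed in 4 of 21 alternatives, over which its adjusted p ranged from 0.00671 to 0.844. For far-1, far-2 and far-6 the interactions were 0.76 ± 0.27, 0.78 ± 0.26 and 0.89 ± 0.33, with edgeR adjusted p of 0.530, 0.530 and 0.539. Those 3 passed by limma voom, at 0.63, 0.67 and 0.96, with adjusted p of 0.0213, 0.0124 and 0.00362. The values of far-8 (0.42 ± 0.33) and far-5 (−0.09 ± 0.59) did not pass in any fit made. Without a test, far-3 stood at −0.91 ± 0.48 and far-7 at 1.01 ± 0.55. The comparisons of genotype on AL and of diet in N2 share the N2 AL libraries, and the interaction uses all 4 groups.

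The neighbours far-1 and far-2 moved together over the 12 libraries. The correlation of their log2 CPM was 0.957, or 0.954 over the 11 libraries without N2 AL replicate 3, where the points share library, depth and scaling. Their ratio within a library, which no scaling affects, was 2.65 to 3.03 far-2 per far-1 in sek-1(km4) DR, 2.96 to 3.15 in sek-1(km4) AL, 2.86 to 3.12 in N2 DR and 3.15 to 3.57 in N2 AL, per kb of exon. Both were also close to far-8, at 0.845 for far-1 and 0.864 for far-2, or 0.849 and 0.873 without N2 AL replicate 3. With far-6 the values were 0.785 and 0.684, or 0.943 and 0.852 without that library. On chromosome V, far-3 ran against both neighbours, with a correlation of −0.816 with far-4 and −0.553 with far-5, or −0.855 and −0.790 without N2 AL replicate 3. The correlation between far-4 and far-5 was 0.615, or 0.684 without that library.

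Among the 7925 genes of at least 5 CPM, those with the pattern most like far-3 over 12 libraries were tofu-1 (Pearson r 0.980), F53F1.2 (0.979) and F55G11.4 (0.972). The size of their differences was smaller, with F55G11.4 at 2.42 CPM in sek-1(km4) DR, 7.45 in sek-1(km4) AL, 13.5 in N2 DR and 32.7 in N2 AL, and tofu-1 at 35.9, 46.2, 57.4 and 70.4 CPM in that order. Closest to far-7 were F44F1.6 (0.966), cpr-2, which codes for a cathepsin B-like protease (0.9003), and the pseudogene WBGene00009020 (0.886). For far-6 they were him-4, for the extracellular matrix protein hemicentin (0.982), ltah-1.2 (0.973) and pcp-5 (0.969). C29F7.3 (0.956), alp-1 (0.954) and F40A3.2 (0.948) came closest to far-1, and cyp-37A1 (0.9299), F25E2.2 (0.924) and the myosin light chain gene mlc-3 (0.924) to far-2. For far-8 they were mlc-3 (0.932), ttr-16 (0.921) and mig-6 (0.917). Without N2 AL replicate 3 these correlations moved by less than 0.1.

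Other lipid-binding and lipid-handling genes were described from chosen lists by count and median, for genotype averaged over diets, beside an all-gene median of 0.07 (log2) and the shares of 28.4% higher and 19% lower. Of 8 measured lbp genes, for lipid binding proteins, 5 rose and 1 fell in sek-1(km4), with a median of 1.01. Examples are lbp-5 (1.87 ± 0.32, SE, edgeR adjusted p = 0.000754) and lbp-2 (1.33 ± 0.16, edgeR adjusted p = 6.11e-05), while lbp-9 fell by 1.13 ± 0.26 (edgeR adjusted p = 0.00492). Of 8 lipocalin and carotenoid cleavage genes 6 rose and 1 fell, with a median of 2.68. These included lpr-3, for a lipocalin of the apical extracellular matrix (2.66 ± 0.26, edgeR adjusted p = 1.44e-05), and lpr-6 (4.20 ± 0.15, edgeR adjusted p = 2.26e-08). The lpr-4 gene was at 15.3 to 16.4 CPM on average in the sek-1(km4) groups and at 1 to 8 counts per N2 library.

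The yolk list had 0 of 8 higher and 1 lower, with a median of −0.18. The gene that fell was rme-2, for the yolk receptor of oocytes (−0.83 ± 0.19, edgeR adjusted p = 0.00452). Of 20 genes of fatty acid synthesis, desaturation and elongation 6 rose and 1 fell, with a median of 0.14, led by the fatty acid synthase gene fasn-1 (1.28 ± 0.29, edgeR adjusted p = 0.00412). Of 20 genes of lipolysis and fatty acid oxidation 7 rose and 4 fell, with a median of 0.30. Here cpt-4 (1.65 ± 0.28, edgeR adjusted p = 0.000641) and the lysosomal lipase gene lipl-2 (0.99 ± 0.15, edgeR adjusted p = 0.000291) rose, and the thiolase gene kat-1 fell by 0.78 ± 0.15 (edgeR adjusted p = 0.00172). Of 9 lipid-responsive nuclear receptors 3 rose and 0 fell, with a median of 0.30, among them nhr-25 (1.97 ± 0.18, edgeR adjusted p = 7.06e-06) and daf-12 (1.77 ± 0.27, edgeR adjusted p = 0.000322). By diet, 1 lbp gene, 1 lipase gene and 1 lipocalin gene passed in N2, namely lbp-2 as lower (−1.24) and lipl-4 (1.83) and lpr-6 (1.07) as higher, and no gene of these lists passed in sek-1(km4).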

How the data were processed

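Whole-animal poly(A) RNA was read as 50 bp single-end libraries, 12 in all. The authors deposited raw read counts per gene, made with featureCounts of Subread per the submitters' processing notes. For the aligner, genome build, annotation, strand setting and versions, nothing is given in the sources used here. All 12 count columns were matched to samples by title, 0 other columns were present, and 0 lines named no gene. Symbols were found for 43693 of 46748 identifiers, and exon lengths and positions come from Ensembl (WBcel235). Near-identical copies could not be checked, since no sequence was used.

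Genes were filtered with filterByExpr (minimum count 10), normalised by TMM and fitted with edgeR 4.0.16 in R 4.3.3, 1 robust quasi-likelihood fit of 4 group means, so the groups share 1 spread. The within-group variance was 0.72 in N2 AL and 0.11 to 0.15 elsewhere (log2 CPM). SE is the absolute log2 fold change over the root of F. Log2 CPM used a prior count of 2. The script was tested on simulated data. Alternatives were DESeq2 1.42.0, limma 3.58.1 (voom with sample weights), RLE size factors, no filter, ribosomal RNA removed (22 genes and 1 pseudogene), exon length offsets (loess), a replicate block, fits of 2 groups, and each library left out. Members and lists were chosen with earlier results of these data known. Named genes are the 8 members, up to 4 called genes per list, and the 3 genes closest to each member of at least 5 CPM. A count of 0 allows up to 3 counts. Replicates are labelled biological, and intervals cover counting error only. No sequence is shown.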

Additional observations from a re-analysis of the deposited data

Results flagged for a closer look

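The far-4 libraries were ordered by diet in opposite directions in the 2 genotypes, with no overlap in CPM in either. It had 3.02 to 7.11 CPM on DR and 0.634 to 1.59 CPM on AL in sek-1(km4), and 0.220 to 0.344 CPM on DR and 0.457 to 0.591 CPM on AL in N2. The difference between these diet values was 3.25 ± 0.61 (log2, SE) and did not pass in the main edgeR fit (adjusted p = 0.458). It passed in 4 of 21 alternatives, among them DESeq2 and limma voom (adjusted p 0.0102 and 0.00671). The others were edgeR with no filter on low counts, and with exon length offsets when N2 AL replicate 3 was left out. The N2 side rests on 5, 9 and 6 counts on DR and 17, 8 and 6 on AL. Its diet value of −0.99 ± 0.48 (log2, SE) was past the threshold in 0 of 22 alternatives, so the direction in N2 is uncertain. No other member met this criterion, and groups of 3 libraries were too small for a check of single outlying libraries.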

How the results depend on the processing

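For genotype averaged over diets, far-3, far-4 and far-6 passed in the same direction under each of 21 alternatives. The number of members that passed was 6, with 4 to 6 when 1 library was left out. Of all genes 47.4% passed there in the main fit, and 37.6% to 68.5% with 1 library left out. Over the 6 members tested on AL, 1 passed. That number was 2 by limma voom and by replicate block with exon length offsets, 0 in the fit of 2 groups, and 0 to 2 when 1 library was left out. Of all genes 17.5% passed on AL in the main fit, 47.7% by limma voom and 36.1% with block and length offsets. In the fit of 2 groups 8.83% passed, and 10.1% to 38.8% with 1 library left out. On DR the number of members was 4, with 2 when no filter was applied, 3 with exon length offsets and 5 with the replicate block. It was 6 by limma voom and in the fit of 2 groups, and 3 to 6 when 1 library was left out. Of all genes 39.5% passed in the main fit, 14.9% with no filter, 53.7% with exon length offsets and 45.5% with the replicate block. By limma voom 74.6% passed, 64.1% in the fit of 2 groups, and 25.2% to 64.5% with 1 library left out. The interaction had 0 members past, against 1 with no filter, 1 by DESeq2, 4 by limma voom and 1 with exon length offsets and N2 AL replicate 3 left out. Of all genes 0.0198% passed with no filter, 0.342% by DESeq2, 9.4% by limma voom and 0.34% in that last fit. The cause of these differences between fits was not tested. For diet, where far-3 and far-7 were chosen on these values, the numbers are a description. In N2 the number of 2 was 5 by limma voom, 0 in the fit of 2 groups and 1 with ribosomal RNA removed. It was 4 with exon length offsets and N2 AL replicate 3 left out, and 0 to 5 with 1 library left out. Of all genes 7.17% were past the threshold by limma voom, 0% in the fit of 2 groups and 1.07% with ribosomal RNA removed. With those offsets and that library left out the share was 3.65%, and with 1 library left out 0.157% to 2.59%. In sek-1(km4) the number of members was 3, and 0 to 3 with 1 library left out, where 0.0393% to 14.9% of all genes were past the threshold. Near 0, the AL value of far-2 (−0.03) turned to 0.075 with no filter, 0.016 by limma voom, 0.015 in the fit of 2 groups, 0.035 with block and length offsets and 0.040 with ribosomal RNA removed, and ran from −0.12 to 0.0998 with 1 library left out. With 1 library left out, far-1 on AL ran from −0.031 to 0.21 and the far-5 interaction from −0.84 to 0.20. With exon length offsets and N2 AL replicate 3 left out, far-1 and far-8 on AL were at −0.14 and −0.24. The number of all genes called was 6924 for the averaged genotype (5651 to 10999 under alternatives), 2550 on AL (1187 to 7957), 5767 on DR (3784 to 10895), 159 for diet in N2 (0 to 1047) and 66 in sek-1(km4) (6 to 6307).

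Replicate numbers were not used to pair libraries in the main fit. Of 18 same-numbered pairs 13 had deviations correlated above 0.1 (median 0.264), against 7 of 36 pairs with different numbers (median −0.144). Of 12 libraries, 9 matched best with their own number, and the main fit does not account for an effect shared by replicate number. With the replicate block, 7 members passed for the averaged genotype, far-8 being added at 0.32 (edgeR adjusted p = 0.0448). In that fit 52.6% of all genes passed, against 47.4% in the main fit. On DR far-8 also passed with the block (0.54, edgeR adjusted p = 0.0255), where 45.5% of all genes passed. Depth limits far-4 and far-5 most, with 5 to 17 and 15 to 49 counts in N2 libraries.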
